A study of Drosophila melanogaster with 2 samples.

Results

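The genes described here are 10 Drosophila melanogaster chaperone and heat shock genes, out of 13945 protein-coding genes on the 6 chromosomes used. They are Hsp22, Hsp23, Hsp26, Hsp27, Hsp67Ba, Hsp67Bb and Hsp67Bc, which lie side by side at 67B on chromosome 3L, the constitutive chaperone genes Hsp83 and Hsc70-4, and Hsf, the gene of the heat shock transcription factor. The genes were chosen by name with results of the same peak lists already known, and a peak was counted for a gene where it overlapped the gene body or the 3 kb on either side by at least 1 bp. The choice rests on these same signal values, so every count below is a description and no test was made.

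The values come from chromatin immunoprecipitation followed by sequencing (ChIP-seq) on whole embryos, 1 day of age, of transgenic flies that express Drgx, a transcription factor, as a fusion with enhanced green fluorescent protein (eGFP). The precipitation used an antibody against GFP, per the sample descriptions, although the antibody field of the labels names Drgx. There were 2 biological replicates of this 1 group, with chromatin sheared by sonication to 200 to 800 bp. The labels name a possible control experiment that was not used here, they do not say which cells of the embryo contain the fusion protein, and no stress or heat treatment is named. Peak lists hold no expression values, so the embryo label could not be checked against marker genes.

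Small heat shock proteins bind unfolding proteins and hold them in a form that can be refolded, while Hsp83 (the fly Hsp90) and Hsc70-4 (a cytosolic Hsp70 cognate) fold client proteins in unstressed cells by cycles of ATP hydrolysis. Hsf binds heat shock elements, arrays of the unit GAA and its complement TTC in alternating orientation, and drives the transcription of heat shock genes after stress. In Drosophila several of the 67B genes are also transcribed without heat during development, and their promoters are known for an open chromatin structure with bound GAGA factor and a paused polymerase. Drgx is a homeodomain protein of the paired-like class, a class that binds AT-rich sites containing TAAT.

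The sequences under 5 of the member peaks are printed here because they carry the positions that the results turn on: the peak ahead of each of 3 of the 67B genes and the strongest or sole peak of each constitutive chaperone. Each runs 5′ to 3′ on the strand of its gene and comes from the NCBI Release 6 assembly (dm6), with untranslated sequence left out and at most the 300 bases of the peak that lie farthest upstream. Capitals mark GAANNTTC and TTCNNGAA, the 2 ways in which a GAA unit and a TTC unit can face each other in a heat shock element, and TAATTA, a palindromic word bound by many homeodomains. The Hsp27 sequence is chr3L:9383721-9384020 (+ strand) and the Hsp26 sequence chr3L:9377428-9377688 (− strand). The Hsp23 sequence is chr3L:9381593-9381881 (+ strand). The Hsp83 sequence, from the intron, is chr3L:3194130-3194406 (+ strand), and the Hsc70-4 sequence is chr3R:15242282-15242581 (+ strand).
Hsp27: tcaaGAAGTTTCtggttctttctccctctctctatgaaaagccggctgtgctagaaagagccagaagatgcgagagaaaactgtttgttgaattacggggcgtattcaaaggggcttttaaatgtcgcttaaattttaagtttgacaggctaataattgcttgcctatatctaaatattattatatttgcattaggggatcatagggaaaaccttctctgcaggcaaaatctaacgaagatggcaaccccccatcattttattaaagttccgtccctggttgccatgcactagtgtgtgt
Hsp26: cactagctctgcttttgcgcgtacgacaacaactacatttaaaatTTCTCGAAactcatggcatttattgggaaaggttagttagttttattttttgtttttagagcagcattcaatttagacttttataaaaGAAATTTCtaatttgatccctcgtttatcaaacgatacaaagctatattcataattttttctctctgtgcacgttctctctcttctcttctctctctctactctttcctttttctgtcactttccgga
Hsp23: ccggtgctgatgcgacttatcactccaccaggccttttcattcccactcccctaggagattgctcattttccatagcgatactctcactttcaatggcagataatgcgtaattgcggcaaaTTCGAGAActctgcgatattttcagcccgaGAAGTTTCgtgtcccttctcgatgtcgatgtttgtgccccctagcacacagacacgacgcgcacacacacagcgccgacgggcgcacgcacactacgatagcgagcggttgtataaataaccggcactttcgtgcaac
Hsp83: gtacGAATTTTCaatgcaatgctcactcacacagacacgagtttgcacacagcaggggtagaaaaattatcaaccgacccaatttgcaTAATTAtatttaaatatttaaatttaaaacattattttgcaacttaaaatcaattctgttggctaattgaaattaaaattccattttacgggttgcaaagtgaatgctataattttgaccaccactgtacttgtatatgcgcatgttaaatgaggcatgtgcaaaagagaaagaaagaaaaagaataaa
Hsc70-4: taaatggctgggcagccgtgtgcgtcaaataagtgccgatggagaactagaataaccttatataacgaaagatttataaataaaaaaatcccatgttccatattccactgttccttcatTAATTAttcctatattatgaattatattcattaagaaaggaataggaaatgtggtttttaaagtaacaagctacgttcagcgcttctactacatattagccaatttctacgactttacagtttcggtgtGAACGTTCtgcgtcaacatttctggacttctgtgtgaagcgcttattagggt
The summit is base 194 of the Hsp27 sequence, base 137 of the Hsp26 sequence and base 193 of the Hsp23 sequence. In the Hsp83 sequence it is base 142, and in the Hsc70-4 sequence base 193. A GAANNTTC word stands in all 5, at the summit itself at Hsp26 and near the upstream edge at Hsp27 and Hsp83. The 5 were picked for printing, so nothing is read from that count. Of all 10 member peaks 6 held the word, against 8.22% of the 8443 pooled peaks, and the Hsp22 peak lacked it.

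The main list holds 8443 peaks called from both replicates together and kept by the authors' threshold on the irreproducible discovery rate (IDR). IDR is low for peaks that rank both high and alike in the lists compared. The main list is called the pooled list below. A second thresholded list from both replicates, named conservative by the authors, holds 7909 peaks, and the replicates' own thresholded lists hold 6349 and 5475. Each thresholded list was cut from a ranked list of 77983 to 97308 scored peaks. The authors gave every peak a signal value, whose scale is not stated, and a score up to 1000 that rises as IDR falls, and no peak of a thresholded list scored under 830. Signal is read here within a list only, and because the lists hold no read counts the depth behind each value is unknown.

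Of the 10 genes, 9 had a pooled peak in their window. By the same rule 46.2% of all coding genes had one, or 39.7% of those no longer than 5 kb. The conservative list had a peak at 8 of the 10, against 45% of coding genes, the replicate 1 list at 9, against 39.6%, and the replicate 2 list at 8, against 36.1%. Both replicates had one at 8, against 32% of coding genes. Nothing is read from these counts, since the genes were picked from these peaks and the 67B genes share them.

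A pooled summit lay within 1000 bp of an annotated start site at 8 of the 10 genes, against 25.2% of coding genes, and Hsp67Bc and Hsf were the exceptions. This held for 6 genes in the conservative list, against 24.1%, for 8 in replicate 1, against 20.4%, and for 5 in replicate 2, against 18.1%. The ranked lists, which are far less selective, had a peak at all 10 genes. Among coding genes they had one at 85.4% (pooled), 85% (conservative), 85.9% (replicate 1) and 88.6% (replicate 2). There were 10 different peaks in all, 6 in the 67B cluster and 4 at Hsp83 and Hsc70-4, and 0 at Hsf. The 6 peaks of the cluster and the 3 at Hsp83 each came to 297 per Mb of window, and the 1 at Hsc70-4 to 100.7 per Mb, against 63.1 per Mb for the whole list. The map of summits across 67B shows 3 tall peaks, each ahead of a small heat shock coding sequence, and 3 low ones between Hsp67Ba and Hsp23.

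**Figure D1:**
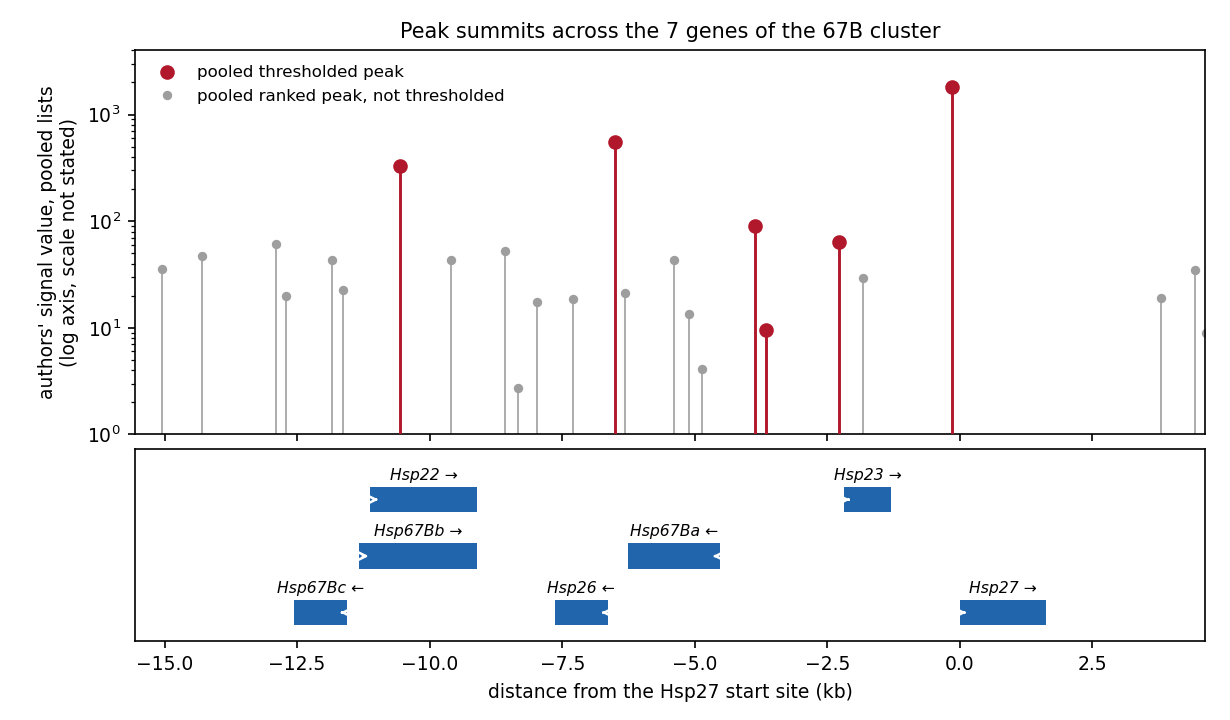
Summits of the pooled lists across the 67B cluster, by distance in kb from the Hsp27 start site (horizontal) and by the authors' signal value on a log axis (vertical), with gene bodies and their direction of transcription below. Large points are thresholded peaks and small grey points are peaks of the ranked list that did not pass; the thresholded signals are 1827 at Hsp27, 553 at Hsp26, 326 at Hsp22, 91.0 and 9.46 upstream of Hsp67Ba, and 63.4 at Hsp23.

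Hsp27 encodes a small heat shock protein found largely in the nucleus in flies. Its peak, chr3L:9383721-9384090, was the strongest of all member peaks, with a signal of 1827 at rank 14 of 8443. In the replicates' own lists it had a signal of 1051 (rank 13 of 6349) in replicate 1 and 768 (rank 16 of 5475) in replicate 2, so it stood in the top 0.166% of the pooled list, the top 0.205% in replicate 1 and the top 0.292% in replicate 2. The summit lay 149 bp upstream of the start site and the replicates placed it 6 bp apart. By the highest peak in its window, Hsp27 ranked 34 among the 6442 coding genes with a pooled peak; among those genes the median highest signal was 168 and the upper quartile 316. Its neighbours in the ranking were the peaks nearest to ph-p, a Polycomb group gene, and Tcs5, with signals of 1840 and 1837. Below it came those nearest to osa, a chromatin remodelling subunit gene, and Fkbp14, with 1778 and 1769. The osa summit lay 13924 bp from the osa start, while those at ph-p, Tcs5 and Fkbp14 lay 473, 105 and 135 bp from theirs. In the ranked list the Hsp27 window held 6 peaks, and no other of these summits lay within 1000 bp of the start.

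Hsp26, a cytosolic small heat shock protein gene, had the second strongest peak of the cluster. The peak chr3L:9377427-9377688 had a signal of 553 at rank 353, and its summit lay 125 bp upstream of the outer of the 2 annotated start sites. Replicate 1 gave it a signal of 302 (rank 416) and replicate 2 a signal of 226 (rank 378), with the 2 summits at the same base. These ranks are the top 4.18%, 6.55% and 6.90% of the pooled, replicate 1 and replicate 2 lists. The word GAANNTTC, here GAAATTTC, was centred 0.5 bp from the pooled summit, closer than at any other member peak. Over the whole pooled list 3 peaks held this word within 1 bp of the summit, a feature singled out after the Hsp26 value was seen. A TTCNNGAA word stood 87.5 bp farther upstream, and 6 GAGAG words, the core of the element bound by GAGA factor, lay within 100 bp of the summit. The same peak falls in the windows of Hsp22, Hsp67Ba and Hsp67Bb, and is the highest signal in each of those windows.

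Hsp22, a mitochondrial small heat shock protein gene, and Hsp67Bb shared the third peak. Hsp67Bb is listed in the annotation as CG4456, and RefSeq gives Hsp67Bb as its synonym; the 2 genes overlap. Hsp22 has 2 annotated start sites, both inside CG4456: 1 that it shares with Hsp67Bb, and a downstream one of its own. The peak chr3L:9373426-9373629 had a signal of 326 at rank 970 in the pooled list, 185 (rank 1007) in replicate 1 and 139 (rank 948) in replicate 2, which is the top 11.5%, 15.9% and 17.3% of those lists. Its summit lay 485 bp upstream of Hsp22's own start and 581 bp into Hsp67Bb from that gene's nearer start, in sequence annotated as untranslated in transcripts of both. Of the member summits this was the one with TAATTA within 50 bp, and it held 5 of them. No other of the 8443 pooled peaks had 5 or more in the same window, again a count made after the value was seen. Up to 30 bases of it, chr3L:9373483-9373512 (+ strand, TAATTA in capitals, from the NCBI Release 6 assembly), show 4 overlapping copies.
Hsp22 and Hsp67Bb: atatTAATTAATTAATTAATTAttaatagc
The last base printed is the pooled summit, and the fifth copy lies 22.5 bp beyond it. The peak held neither GAANNTTC nor TTCNNGAA.

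Hsp67Bc encodes a small heat shock protein that, in flies, works with the co-chaperone Starvin. It is transcribed away from Hsp22 and Hsp67Bb, and it had no peak of its own. The Hsp22 peak was the sole pooled peak in its window, with the summit 1015 bp upstream of the Hsp67Bc start in the pooled list and 1003 bp in replicate 1, just outside the 1000 bp used for start sites. In the pooled ranked list the highest summit within 1000 bp of its start had a signal of 43.4 at rank 19485 of 97308.

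Hsp67Ba, whose protein carries a small heat shock domain, had 2 pooled peaks upstream that overlap each other. The nearer, chr3L:9380008-9380391, had a signal of 91.0 at rank 5957 and its summit lay 666 bp from the Hsp67Ba start. In replicate 1 it was thresholded with a signal of 41.5 (score 848), and in replicate 2 it stood in the ranked list alone, with a signal of 41.3 and a score of 410. The farther one, chr3L:9380208-9380591, had a signal of 9.46 at rank 8308 of 8443, so it lay among the lowest of the list by signal. Its pooled score was nonetheless 1000. In the pooled ranked list its −log10 of IDR was 2.7331, close to the 2.7335 of the nearer peak, and whether the 2 are separate was not tested. The farther peak's own partners, matched by the closest summit, had a signal of 7.82 and a score of 847 in replicate 1. In the ranked list of replicate 2 they had 5.11 and 69. In the conservative ranked list the score of the farther peak was 48. Both summits lie in an exon of the antisense RNA gene asRNA:CR43481, 159 and 41 bp from one of its start sites, nearer than to the start of any coding member. Peak lists carry no strand, so they cannot be assigned to either transcript.

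Hsp23 encodes a cytosolic small heat shock protein and had the weakest of the peaks whose summit lay within 500 bp of a member's start. The peak chr3L:9381593-9381976 had a signal of 63.4 at rank 7918 of 8443, with a score of 894, and its summit lay 97 bp upstream of the start. Replicate 1 listed it with a signal of 52.7 at rank 5699 of 6349, but in replicate 2 it was found in the ranked list alone, at a signal of 17.3, rank 29513 of 77983 and a score of 91. The conservative ranked list gave it a score of 189, under the threshold. Hsp23 and Hsp27, adjacent and transcribed in the same direction, therefore had the weakest and the strongest of these peaks. The Hsp27 peak, 2032 bp downstream of the Hsp23 start, is the highest in the Hsp23 window. The Hsp23 peak held both GAANNTTC (GAAGTTTC), 37.5 bp from the summit, and TTCNNGAA, 67.5 bp from it.

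**Figure D2:**
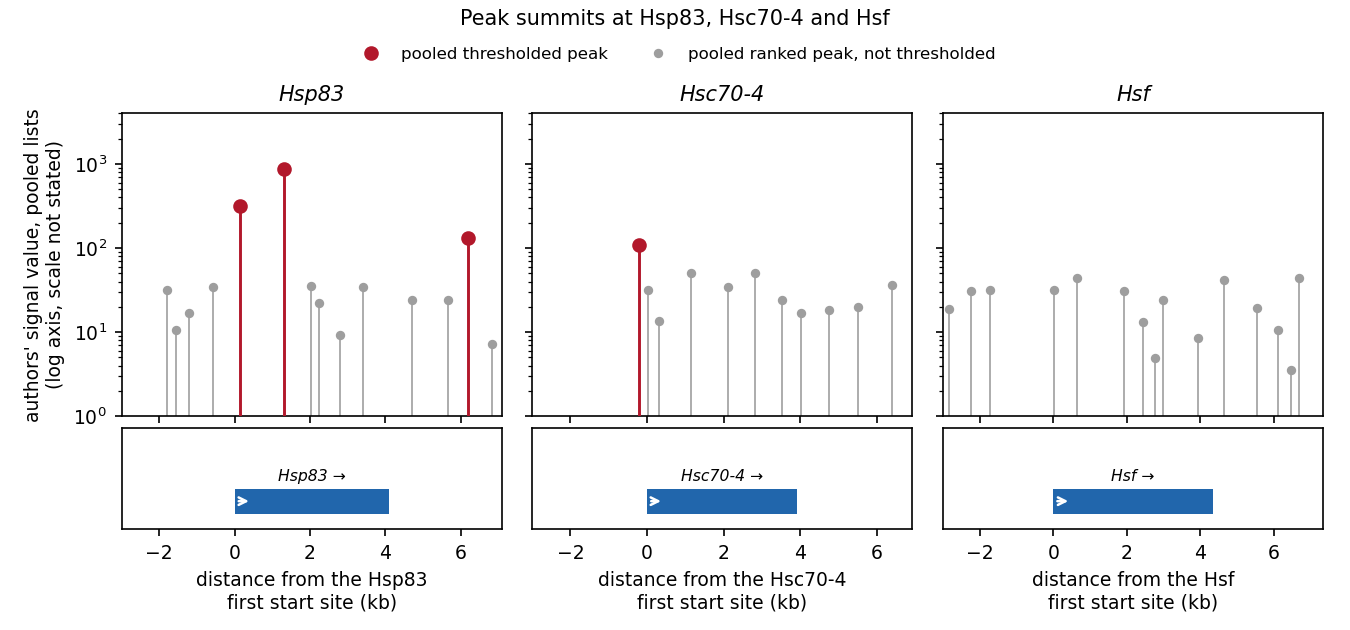
Summits of the pooled lists at Hsp83, Hsc70-4 and Hsf, by distance in kb from the first start site in the direction of transcription (horizontal) and by the authors' signal value on a log axis (vertical), with the gene body below. Hsp83 has thresholded peaks (large points) with signals of 314, 876 and 131, Hsc70-4 has 1 with 108, and at Hsf the ranked peaks (small grey points) reach 44.6 with none thresholded.

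Hsp83 was the constitutive chaperone gene with the stronger peaks. Its highest, chr3L:3194130-3194406, lay in the intron, 1302 bp downstream of the first start site and 1055 bp downstream of the second. It had a pooled signal of 876 at rank 130, with 503 (rank 139) in replicate 1 and 365 (rank 139) in replicate 2. These are the top 1.54%, 2.19% and 2.54% of the lists. Only the Hsp27 peak was higher among the member peaks. This intronic peak held TAATTA 50.5 bp from its summit and GAANNTTC 133.5 bp from it. A second peak, chr3L:3193021-3193203, lay in the 5′ UTR between the 2 start sites, 137 bp past the first and 110 bp before the second, with a signal of 314 (rank 1047) in the pooled list. Replicate 1 gave it 179 (rank 1065) and replicate 2 gave it 117 (rank 1280), with summits 32 bp apart. It held a GAANNTTC word 45.5 bp from its summit. The third peak in the window, chr3L:3198975-3199358, with a signal of 131 at rank 3791, lay beyond the gene, 77 bp from a start site of gry and 5951 bp from the nearest Hsp83 start. It was thresholded in replicate 2 with 71.1 (rank 2703), while replicate 1 had it in the ranked list with 65.1 and a score of 794. It is nearer to gry than to any member.

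Hsc70-4 had 1 pooled peak, chr3R:15242282-15242665, with a signal of 108 at rank 4845 and its summit 213 bp upstream of the first start site. Replicate 1 listed it with 73.3 at rank 4036 of 6349. In replicate 2 the overlapping peak stood in the ranked list alone, with a signal of 27.6 and a score of 83, and in the conservative ranked list it scored 810, just under the lowest thresholded score of 830. Its signal was under the median of the pooled list, 120, and by highest peak the gene ranked 4806 of 6442. The peak held GAANNTTC 59.5 bp and TAATTA 70.5 bp from the summit, on opposite sides.

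Hsf, whose product binds heat shock elements, had no thresholded peak in any of the 4 lists, pooled, conservative or per replicate. The pooled ranked list held 15 peaks in its window, of which the highest had a signal of 44.6 at rank 18592 of 97308 and a score of 380. The highest within 1000 bp of its start had a signal of 43.8. In replicate 1 the highest ranked peak had a signal of 35.8 and a score of 362, and in replicate 2 it had 22.8 and 240. The nearest pooled summit was 6184 bp from the Hsf start, at pAbp, the gene of a poly(A)-binding protein. Ranked peaks are common everywhere: their summed width came to 27.4% of the genome in the pooled ranked list, so nothing is read from the presence of ranked peaks at Hsf.

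**Figure D3:**
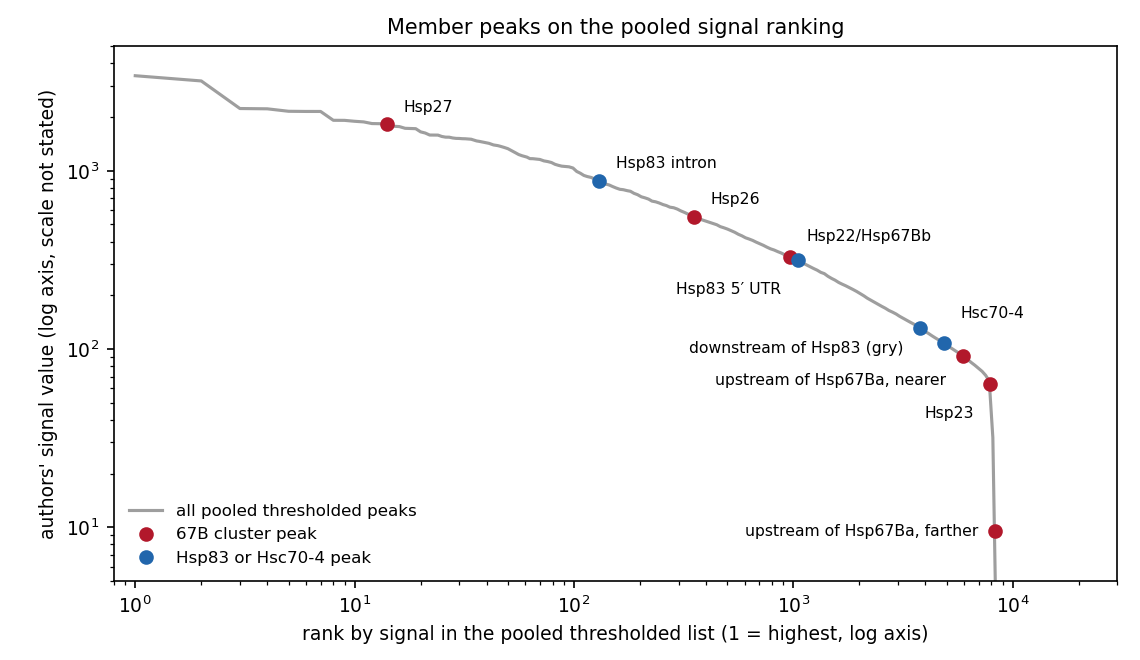
The authors' signal value (vertical, log axis) of the pooled thresholded peaks by rank (horizontal, log axis, 1 is the highest), with the 6 peaks of the 67B cluster and the 4 peaks at Hsp83 and Hsc70-4 marked on the curve of all 8443. The 67B peaks run from rank 14 to rank 8308 and the other member peaks from rank 130 to rank 4845.

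Between the groups, the 67B peaks spread more widely than those of the constitutive chaperones. The 6 cluster peaks had signals of 9.46 to 1827 with a median of 209, and the 4 peaks at Hsp83 and Hsc70-4 had 108 to 876, so the ranges overlap and neither group stood above the other. The peak of 9.46 overlaps a stronger one upstream of Hsp67Ba, and the next lowest in the cluster was 63.4 at Hsp23. Of the 4, the peak of 131 lies nearer to gry than to Hsp83. The median of the 10 member peaks was 222, against 120 over the other 8433 pooled peaks. The genes were chosen with these signals known, so nothing is read from that difference. Ranks by gene ran in the same mixed order: 34 for the Hsp27 and Hsp23 windows, 280 for Hsp83, 677 for Hsp22, Hsp26, Hsp67Ba and Hsp67Bb, 1557 for Hsp67Bc and 4806 for Hsc70-4. Genes that share a rank here share a peak, and these are not separate measurements.

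Replicate support is not independent of the pooled signal, since the pooled list was called from both replicates together. Both replicates' thresholded lists held an overlapping peak for 5 of the 10 member peaks, 3 of the 6 in the cluster and 2 of the 4 at the constitutive genes, against 4308 of the other 8433 pooled peaks, or 51.1%. Those 5 were the member peaks with pooled signals of 314 and above: Hsp27, the Hsp83 intron, Hsp26, Hsp22 and the Hsp83 5′ UTR. Of the rest, 4 had a thresholded partner in replicate 1 alone and 1, the gry peak, in replicate 2 alone. All of the 5 less supported peaks overlapped a ranked peak of the other replicate. The partner with the closest summit had scores of 69 to 794. The ranked lists are permissive, with summed widths of 24.1% of the genome in replicate 1 and 17.5% in replicate 2. The share of all pooled peaks with such an overlap was not computed, so nothing is read from it. Over the 5 member peaks thresholded in both replicates, the replicate summits lay 0 to 32 bp apart. Over the 4373 pairs of overlapping thresholded peaks the median was 23 bp, with quartiles of 9 and 49 bp. Peaks without such a pair were measured between ranked peaks, a different measure, at 1 bp for Hsp23 and 16 bp for Hsc70-4.

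**Figure D4:**
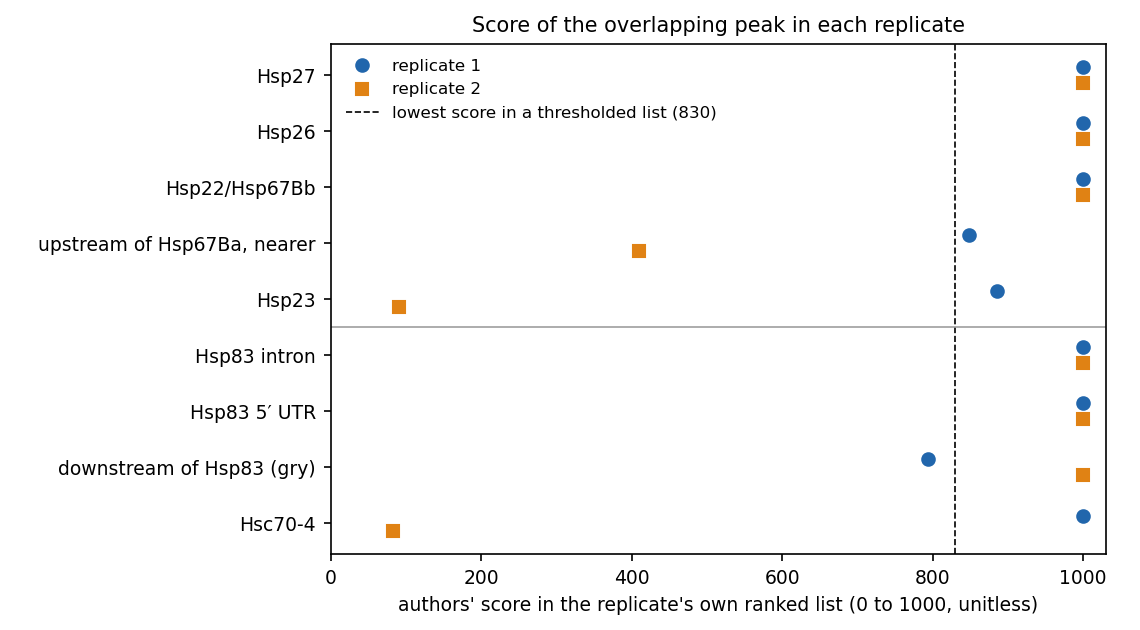
The authors' score (horizontal, 0 to 1000) of the highest peak in each replicate's own ranked list that overlaps the pooled member peak (vertical, 67B cluster above the line, Hsp83 and Hsc70-4 below). Circles are replicate 1 and squares replicate 2, and the dashed line is the lowest thresholded score of 830; 5 peaks have both points at 1000, and the points at 91, 83, 410 and 794 fall short of the line. The farther of the overlapping peaks upstream of Hsp67Ba, whose own partners score 847 in replicate 1 and 69 in replicate 2, is not drawn.

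Words were searched on both strands, within 50 bp of each summit, and a match is a description of the letters and not evidence of a bound site. GAANNTTC and TTCNNGAA each equal their own reverse complement and can overlap each other. GAANNTTC stood in 3 of the 10 member windows (Hsp26, Hsp23 and the Hsp83 5′ UTR), against 2.65% of the 8443 pooled summits, and TTCNNGAA in 0, against 2.49%. Within 100 bp the counts were 4 and 2, against 5.03% and 4.73%, and in the whole peaks they were 6 and 2, against 8.22% and 7.24%. TAATTA stood in 1 window, against 7.97% of summits, GAGAG in 0, against 13.9%, and TATAAA, the core of the TATA box, in 1, against 18.4%. Within 100 bp TAATTA stood at 3 member summits, against 13.5%, GAGAG at 1, against 28.8%, and TATAAA at 3, against 29.8%. In the whole peaks TAATTA stood in 3, against 19.2%, GAGAG in 4, against 42.7%, and TATAAA in 5, against 39.1%. Hsp22 had the 1 member summit with TAATTA within 50 bp, and strong and weak member peaks alike otherwise lacked it there. In the Hsp83 intron it lay 50.5 bp from the summit, just outside that window, so nothing is read from its absence. Heat shock genes are known for heat shock elements in their promoters, and whether these words have a part in the signal was not tested.

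At the start sites themselves, from 250 bp upstream to 50 bp downstream, GAANNTTC stood in 10 of the 18 annotated member start sites, against 9.37% of the 19253 start sites of coding genes, a site shared by several genes being counted once. TTCNNGAA stood in 5 of them, against 7.64%, and TATAAA in 14, against 42.3%. GAGAG stood in 8, against 33.2%, and TAATTA in 3, against 18.9%. The Hsp27 start, with the strongest peak, held neither arrangement in that window, since its GAANNTTC lies farther upstream, and the starts of Hsf and Hsp67Ba held none of the 5 words. Hsp22's own start held 2 GAANNTTC and 5 GAGAG words although the summit lay 485 bp upstream of it. Several of these start sites belong to the same gene and share sequence.

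Of 33 other genes listed, chaperone and co-chaperone genes and the noncoding RNA gene Hsromega, 31 matched the annotation (Hsp67Bd and Hop did not). In this list 13, or 41.9%, had a pooled peak in their window, against 46.2% of coding genes, and 7 had one in both replicates, against 32% of coding genes. The highest belonged to CG4461, a small heat shock gene inside the 67B cluster whose window takes in the Hsp26 peak of 553, so it is no separate peak. Next came stv, the gene of Starvin, with 513 at rank 414, mrj, a J-domain co-chaperone gene, with 435, and Hsc70-5, the mitochondrial Hsp70 gene, with 302 and its summit 16 bp from the start. CG14207, another small heat shock protein gene, had 268, with the summit 1054 bp from its start, and Trap1, the mitochondrial Hsp90 gene, had 161 from a peak at Vha16-1. A summit, not always that of the highest peak, lay within 500 bp of a start site at 5 of the 31: stv (74 bp), mrj (327 bp), Hsc70-5 (16 bp), Gp93, the endoplasmic reticulum Hsp90 gene (8 bp), and Hsp60A, a mitochondrial chaperonin gene (144 bp). The share of coding genes with such a summit was 20.9%. No pooled peak stood at any of the 6 stress-induced Hsp70 genes, at Hsp68 or at Hsromega, a stress-induced noncoding RNA gene. The Hsp70 genes are near-identical copies, so reads from them may not have been placed and their lack of a peak is uncertain. They and Hsromega, which is not a coding gene, are nonetheless counted in the 31.

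Just inside and just outside the limits of the rule, the values were as follows. The gry peak was the member peak farthest from a member, at a signal of 131. The nearest pooled peak outside the 67B windows lay 3686 bp beyond the cluster, 257 bp from the start of CG4452, with a signal of 123. Outside the Hsc70-4 window the nearest lay 3875 bp from the gene with a signal of 178, in an intron with CG42404 as the nearest gene. For Hsp83 the nearest lay 13183 bp away, in an intron with Girdin as the nearest gene, with a signal of 364. With the flanks widened to 10 kb, 14 peaks and all 10 genes were counted, against 70.4% of coding genes.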

How the data were processed

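ChIP-seq was run on 2 biological replicates of 1 group, and the 8 deposited peak lists (4 thresholded, 4 ranked, on dm6) were the starting point. No aligner, peak caller or normalization is named in the labels, file headers or readme texts used here. The authors deposited a signal value per peak, of unstated scale, and a score, which in the ranked lists rises with the negative logarithm of the global IDR up to a limit of 1000. The authors' deposited −log10 of IDR in the ranked lists was read as the source of that score. Ranks, overlaps (at least 1 bp), distances and word counts were computed with Python 3.11.15, numpy 2.4.6 and pandas 2.3.3, and the overlap and word functions were tested on simulated data. Start sites came from Ensembl release 115 and sequence from NCBI Release 6; the 6 chromosomes kept were the X, both arms of 2 and of 3, and 4. A summit was assigned to the gene with the nearest start site.

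The members, words and lists were chosen with earlier results of these data known. The rule for naming genes takes all 10 members, the 6 other chaperones with the highest signal, any with a summit within 500 bp of a start, the 2 peaks on either side of the strongest member peak in the ranking, and genes nearer to a member peak than any member. Alternatives varied the flank, the list, the score, the distance and the word window. No test was made: the design has 1 group and no control library was used here.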

Additional observations from a re-analysis of the deposited data

How the results depend on the processing

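Which peaks were counted depended on the window and on the replicate. The 10 pooled peaks in member windows became 6 with no flank, and the lists of single replicates gave 6 to 9, the lower count from replicate 2 alone. The 8 genes with a summit within 1000 bp of a start ranged from 5 to 8 over single replicates. The 9 genes with a peak stayed at 6 to 10 over all the settings tried, with 8 in the conservative list. The share of all coding genes, 46.2%, was 39.7% for genes of at most 5 kb, 22.8% with no flank, 34.3% with 1 kb and 70.4% with 10 kb, and 36.1% to 39.6% over single replicates. GAANNTTC, within 50 bp of 3 member summits, was in 6 whole peaks. GAGAG (0 within 50 bp) was at 1 within 100 bp (28.8% of all pooled peaks) and in 4 whole peaks (42.7%), TAATTA (1) at 3 (13.5%) and in 3 (19.2%), and TATAAA (1) at 3 (29.8%) and in 5 (39.1%). Whole peaks and the second arrangement of the heat shock element were alternatives chosen after seeing the data. As a percent of lists of different length, which shows no change in signal, ranks in the pooled list and in replicate 2 alone were as follows: 0.166% against 0.292% for the highest peak at Hsp27, 4.18% against 6.90% at Hsp26, 1.54% against 2.54% at Hsp83 and 11.5% against 17.3% at Hsp67Bc. Among thresholded lists, Hsf gave no rank in any of the 4, and Hsc70-4 gave none in the conservative and replicate 2 lists. No paired analysis was possible because there is 1 group. With 2 replicates, no read counts and no control library used here, neither the precision of a signal nor its background is known.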
